A study of Mus musculus with 6 samples.

Results

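The proteasome subunit genes expressed by peritoneal macrophages are described here across genotypes and experiment codes. Members were all genes whose symbol begins with Psma, Psmb, Psmc or Psmd and a digit, without the inducible subunits Psmb8, Psmb9 and Psmb10 and without pseudogene symbols. The rule matched 37 of the 25509 genes in the count table. Of these, 16 encode the core particle (Psma1 to Psma8, Psmb1 to Psmb7 and Psmb11) and 20 encode the regulatory particle or its assembly (Psmc1 to Psmc6 and Psmd1 to Psmd14). The remaining match, Psmc3ip, shares only the first letters of its name, since it encodes a partner of the meiotic recombinases, and it was kept apart. The 36 subunit genes lie on 16 chromosomes, with 6 of them on chromosome 11 and Psmd10 on the X chromosome.

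RNA was sequenced from 6 libraries of C57BL/6 peritoneal macrophages, 3 from wild-type (WT) mice and 3 from Tg-ACE mice, also labelled JWT, which overexpress angiotensin-converting enzyme. In the design text the transgenic group is called Tg-NKO, and the title and sample labels, which say Tg-ACE, were followed. Sources used here do not give the promoter that drives the transgene or the sex and age of the mice. Cells of both groups had been drawn into the peritoneal cavity with thioglycollate, an irritant, taken on day 4, passed over a Percoll density gradient and kept in medium for 2 h, after which the attached cells were used. The descriptions hold an experiment code, which is Exp-156 for replicate 1 of either genotype and Exp-156b for the others (replicates 2 and 3), and no label explains the codes. Whether replicates are separate mice is not in the labels, and p-values reflect only the scatter among these libraries, which may be technical.

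The proteasome is the barrel-shaped protease that breaks down most ubiquitin-tagged proteins of the cytosol and nucleus. Its core particle stacks rings of alpha subunits (Psma genes), which form the gate, around rings of beta subunits (Psmb genes), of which Psmb5, Psmb6 and Psmb7 carry the cutting sites. Its regulatory particle caps the core with a ring of ATPases (Psmc genes), which unfold the substrate, and non-ATPase subunits (Psmd genes), which receive and remove ubiquitin or hold the cap together. In macrophages the same machine supplies peptides for MHC class I, and interferon replaces the cutting subunits by Psmb8, Psmb9 and Psmb10.

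Library totals ranged from 24294260 to 28120415 counts, and the smallest level treated as detected, 3 counts, was between 0.107 and 0.123 CPM (read counts scaled to the size of each library). Of the markers of the labelled cell type, all 14 macrophage core genes were detected, and they summed to between 29533 and 35639 CPM. Ace, the overexpressed gene, was at 16.7, 7.6 and 11.6 CPM in the WT libraries and at 100.6, 25.6 and 31.8 CPM in the Tg-ACE libraries. The groups did not overlap, and 2.38% of all tested genes were likewise higher in Tg-ACE without overlap. The log2 difference of Ace was 2.14, and 1.95 with the code as a term. In neither edgeR fit did Ace pass an adjusted p of 0.05. The first principal component of all tested genes held 74.6% of the variance and separated the Exp-156 from the Exp-156b libraries. The biological coefficient of variation that edgeR fitted was 0.310 with genotype alone and 0.108 with the code as a second term. Xist, which is expressed from the inactive X chromosome of female cells, was at 0.409 and 0.527 CPM in the 2 Exp-156 libraries and ranged from 327 to 454 CPM in the 4 others, while the Y-linked Ddx3y was at 48.0 and 51.6 CPM under Exp-156 and at most 0.107 CPM in Exp-156b.

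Promoter sequences are shown first for 6 subunits that stand for the patterns described after them: the catalytic subunits Psmb5 and Psmb6, the regulatory subunits Psmd2, Psmd11 and Psmd8, whose RNA was higher under Exp-156b, and the alpha subunit Psma1, whose RNA differed least between the codes. Each is the 250 bases before the RefSeq start of the gene (build GRCm38.p6), written 5′ to 3′ on the strand of the gene. Capitals mark the letters TGACNNNGC (an antioxidant response element, bound by Nfe2l1 and Nfe2l2), CCGGAAG (an ETS factor site) and CCAAT (bound by nuclear factor Y), on either strand. The windows are chr14:54617996-54618245, reverse strand, for Psmb5, chr11:70525107-70525356, forward strand, for Psmb6, chr16:20651402-20651651, forward strand, for Psmd2, chr11:80428365-80428614, forward strand, for Psmd11, chr7:29180674-29180923, reverse strand, for Psmd8, and chr7:114276117-114276366, reverse strand, for Psma1.
Psmb5: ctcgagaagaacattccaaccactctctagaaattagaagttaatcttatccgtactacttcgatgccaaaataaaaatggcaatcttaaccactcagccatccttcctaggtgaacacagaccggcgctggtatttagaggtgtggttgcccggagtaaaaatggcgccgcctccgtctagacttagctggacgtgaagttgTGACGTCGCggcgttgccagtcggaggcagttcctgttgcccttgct
Psmb6: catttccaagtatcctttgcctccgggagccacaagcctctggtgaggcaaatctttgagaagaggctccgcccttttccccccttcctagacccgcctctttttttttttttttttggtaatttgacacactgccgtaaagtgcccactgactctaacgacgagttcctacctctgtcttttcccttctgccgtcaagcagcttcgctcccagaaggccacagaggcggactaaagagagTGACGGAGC
Psmd2: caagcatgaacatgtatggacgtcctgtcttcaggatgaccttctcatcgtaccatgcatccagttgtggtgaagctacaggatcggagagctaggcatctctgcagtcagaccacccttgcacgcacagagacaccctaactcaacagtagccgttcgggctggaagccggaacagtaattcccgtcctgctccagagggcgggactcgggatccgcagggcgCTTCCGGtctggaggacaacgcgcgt
Psmd11: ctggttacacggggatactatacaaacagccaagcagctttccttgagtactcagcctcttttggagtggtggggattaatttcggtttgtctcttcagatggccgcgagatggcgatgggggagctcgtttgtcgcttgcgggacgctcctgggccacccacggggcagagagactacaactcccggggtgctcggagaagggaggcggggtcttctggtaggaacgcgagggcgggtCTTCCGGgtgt
Psmd8: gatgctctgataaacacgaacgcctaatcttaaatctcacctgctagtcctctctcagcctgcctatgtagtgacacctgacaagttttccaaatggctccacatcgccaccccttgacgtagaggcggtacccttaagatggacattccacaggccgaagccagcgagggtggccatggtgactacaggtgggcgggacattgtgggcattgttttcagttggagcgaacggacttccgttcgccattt
Psma1: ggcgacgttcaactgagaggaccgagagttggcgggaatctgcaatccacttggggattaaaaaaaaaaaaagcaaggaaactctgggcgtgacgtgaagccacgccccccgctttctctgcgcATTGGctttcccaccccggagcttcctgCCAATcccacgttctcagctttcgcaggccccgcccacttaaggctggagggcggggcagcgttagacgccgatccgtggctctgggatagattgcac

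In these letters the response element of Psmb5 begins 47 bases before the start and that of Psmb6 begins 9 bases before it. The ETS letters lie 26 bases before the start of Psmd2 and 11 bases before that of Psmd11, both on the opposite strand. The Psma1 window holds CCAAT 98 bases before the start and its reverse complement 126 bases before it, and the Psmd8 window holds none of the 3 motifs. Promoter entries matched 29 of the 36 subunits, and 12 motifs were searched in 250 bases before to 50 bases after the start. CCGGAAG was present in 10 of 29 subunit promoters (34.5%), against 9.93% of the 27025 genes with an entry, and it was found in 9 of 17 regulatory and 1 of 12 core subunits. TGACNNNGC was present in 5 of 29 (17.2%), against 14.0% of all genes, in Psmb5, Psmb6, Psmc6, Psmd9 and Psmd12. Its form with G, TGAGNNNGC, was present in 11 of 29 (37.9%), against 19.8% of all genes. CCAAT was about as frequent in subunit promoters, 12 of 29 (41.4%), as in all promoters (41.1%), and GGGCGG, an Sp1 site, was present in 18 of 29 (62.1%), against 38.2%. The letters describe the sequence only, and binding was not measured.

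The macrophages held RNA of 35 subunits above the limit of detection in every library, Psma8 at a low level, and only Psmb11 was under the limit. Levels between genes were compared as CPM per kilobase of exon, averaged over the 6 libraries. Psmd8, a lid subunit of the regulatory particle, stood highest at 149.4, followed by the catalytic subunits Psmb6 at 134.7 and Psmb5 at 109.4 and by Psmd2, the large base scaffold, at 79.0. The core subunits other than Psma8 and Psmb11 lay between 22.7 and 134.7 CPM per kilobase (median 40.5, n = 14), a 5.94-fold range. The regulatory members, with none left out, lay between 3.99 and 149.4 (median 24.8, n = 20), a 37.4-fold range. Low members were thus left out of the core range only, so the widths of the ranges are not comparable. The lowest regulatory members, Psmd5 at 3.99 and Psmd9 at 4.24, encode chaperones that help to assemble the base and then leave. They are not built into the finished particle, and the next lowest member was Psmd11 at 10.1. With the length of the principal coding transcript in place of all exons, Psmb6 (316.1) and Psmd8 (296.6) changed places, and Psma7 moved from rank 15 to rank 3.

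**Figure D1:**
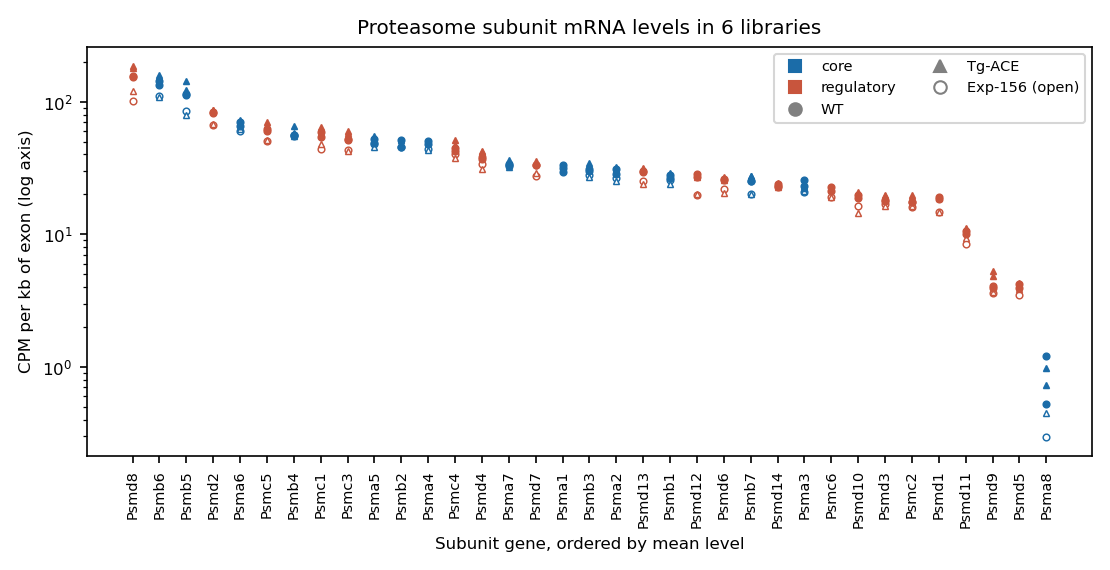
Levels of the subunit genes as CPM per kilobase of exon (log axis), one point per library, core and regulatory members apart. Psmd8, Psmb6 and Psmb5 stand highest, and Psmd5, Psmd9 and Psma8 lowest, and Psmb11, with 1 count in all, is left out.

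Psma8 replaces Psma7 in the testis, and its level here was 0.737 and 1.13 CPM in the Exp-156 libraries and 1.31, 3.02, 2.43 and 1.81 CPM in the Exp-156b libraries. Psma7 and Psma8 were not among the 9 subunits with an expected count that was not whole. No fraction of a read was therefore seen to be divided between them. The value of Psma8 rests on only 18 to 76 counts per library. Psmb11, the catalytic subunit of thymic epithelium, had 1 count, in Tg-ACE replicate 2, and 0 counts in the other 5 libraries, which is under the limit that 3 counts set. Psmb11 therefore entered no test, and 35 of the 36 subunits, 15 core and 20 regulatory, passed the filter on low counts. Exons of Psmb7, Psmc3, Psmd1 and Psmd13 overlap those of Nek6, Slc39a13, Htr2b and Sirt3 on the opposite strand, by up to 253, 147, 252 and 329 bases. On the same strand, Psmd1 overlaps Gm21972 by up to 154 bases and Psmb5 overlaps the microRNA gene Mir686 by 109 bases, so reads there cannot be assigned by strand. Psmc3ip lay between 1.39 and 2.22 CPM in the 6 libraries.

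No proteasome subunit passed the test between Tg-ACE and WT macrophages, and Ace, the overexpressed gene, did not pass it either. The comparison asked how the ACE transgene changes gene expression. Of 35 tested subunits, 0 passed an adjusted p of 0.05 in the quasi-likelihood test of edgeR, adjusted by Benjamini-Hochberg over all tested genes, and 0 had an unadjusted p under 0.05, where 0% and 0.982% of all 12827 tested genes did so. DESeq2 and limma-voom with the same term also called 0 of 35. The median log2 difference, Tg-ACE minus WT, was 0.04 over the 15 core and 0.07 over the 20 regulatory members, against -0.01 over all tested genes. It was above 0 for 31 of 35 subunits, where 48.1% of all tested genes were above 0, and lay between -0.06 and 0.25. For 0 of 36 subunits were all 3 libraries of one genotype beyond those of the other, while 2.38% of all tested genes were higher and 2.53% lower without overlap. In bulk RNA, fewer cells of a type and less RNA per cell cannot be told apart.

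Psmd8, which encodes the lid subunit that completes lid assembly, gave the widest genotype difference. It was at 308, 467 and 477 CPM in the WT libraries and at 365, 552 and 572 CPM in the Tg-ACE libraries. The lowest Tg-ACE library lay inside the WT range. Exp-156 holds 1 library per genotype. Within each code the Tg-ACE libraries of Psmd8 were above the WT libraries, as in Psmc2, Psmc5, Psmd11 and other subunits. The share of all tested genes with this order is not given here, so it sets none of these subunits apart. The mean of Psmd8 was 417 ± 94.6 CPM in WT and 496 ± 114 CPM in Tg-ACE (SD, n = 3 each). Its log2 difference was 0.25 (SE 0.24), with an unadjusted p of 0.34 in edgeR. With the experiment code as a term the log2 difference stayed at 0.25, its SE was 0.06 and its unadjusted p was 0.0038, and the Benjamini-Hochberg adjusted p of edgeR's quasi-likelihood test was 0.67. DESeq2 with the code as a term called Psmd8, with a log2 difference of 0.26 and an adjusted p of 0.0096, as 1 of 38 genes that it called among all tested.

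Psmd9, an assembly chaperone of the ATPase ring, was at 26.1, 28.7 and 29.7 CPM in WT and at 26.5, 35.1 and 38.2 CPM in Tg-ACE. The groups overlapped through the Tg-ACE library of Exp-156, which was level with the WT library of that code. Its log2 difference was 0.24 (SE 0.15) and, with the code as a term, 0.23 (SE 0.09), with an adjusted p of 0.76 in edgeR. Psmd9 shares up to 1849 exonic bases with Gm26745, a long non-coding RNA on the opposite strand, and no source used here gives the strand setting of the counting, so its reads cannot be told apart from those of Gm26745. With the code as a term, Psmd8 and Psmd9 were the 2 of 35 subunits with an unadjusted p under 0.05, where 6.48% of all tested genes had one, and 0 of 35 passed the adjustment, where 0.0156% of all tested genes did. Psmc2, an ATPase, was at 80.4, 88.7 and 88.6 CPM in WT and 81.9, 96.2 and 99.8 CPM in Tg-ACE, and Psmd5, the other chaperone named above, at 25.04, 30.2 and 28.2 CPM in WT and 28.2, 30.4 and 31.2 CPM in Tg-ACE. Both overlapped between the genotypes, with log2 differences of 0.11 (SE 0.11) for Psmc2 and 0.10 (SE 0.11) for Psmd5.

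Among the core subunits, the smallest p-values between genotypes were those of Psmb4, Psmb3, Psmb6 and Psmb5. Psmb4, a structural beta subunit, was at 108, 109 and 109 CPM in WT and 107, 114 and 127 CPM in Tg-ACE. Psmb3, also structural, was at 64.2, 69.4 and 71.4 CPM in WT and 61.7, 75.7 and 80.0 CPM in Tg-ACE. In both, Tg-ACE replicate 1 was the lowest of the 6 libraries and Tg-ACE replicate 3 the highest, so the groups overlapped fully. Their log2 differences were 0.09 for Psmb4 (SE 0.09) and 0.09 for Psmb3 (SE 0.12), and those of the catalytic subunits were 0.12 for Psmb6 (SE 0.18), 0.15 for Psmb5 (SE 0.24) and 0.08 for Psmb7 (SE 0.16).

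Taken within each code, the genotype differences of the subunits were mixed in sign in Exp-156 and mostly above 0 in Exp-156b. Over all tested genes, 6250 of 12827 were above 0 in Exp-156 and 6157 of 12707 in Exp-156b. Within Exp-156, with 1 library per genotype and therefore no test, the median log2 difference was -0.03 over core members, of which 4 of 15 were above 0, and 0.00 over regulatory members, of which 11 of 20 were above 0. Within Exp-156b, with 2 libraries per genotype, it was 0.07 over core members (13 of 15 above 0) and 0.09 over regulatory members (19 of 20 above 0), against a median of -0.01 over all tested genes in either code. Psmb3, Psmb4, Psmb5, Psmb6 and Psmb7 had negative values in Exp-156, between -0.08 and -0.02, and positive values in Exp-156b, between 0.12 and 0.23. Psmb1 was at -0.10 in Exp-156 and 0.04 in Exp-156b. Psmb2 went the other way in Exp-156, at 0.10, and was at 0.02 in Exp-156b. The difference itself was tested as an interaction of genotype and code, and 0 of 35 subunits passed the adjustment in edgeR and 0 in DESeq2. Psmd4, a ubiquitin receptor with a log2 difference of 0.27 between the codes' genotype effects, alone had an unadjusted p under 0.05 in edgeR, where 7.65% of all tested genes had one, and its adjusted p was 0.65.

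**Figure D2:**
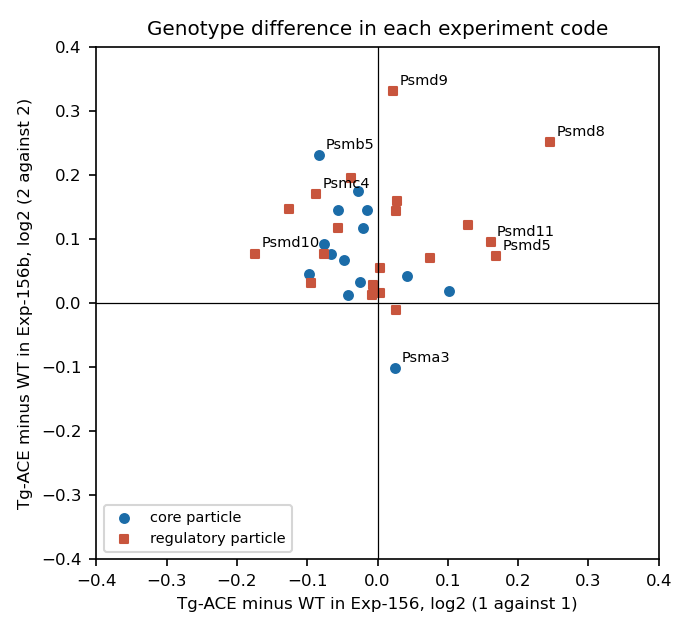
Log2 difference, Tg-ACE minus WT, of each subunit within Exp-156 (x axis, 1 library per genotype) and within Exp-156b (y axis, 2 libraries per genotype), core and regulatory members in separate colours. Psmd8 lies at 0.25 on both axes, while most beta subunits lie left of 0 and above 0, and Psma8 is left out.

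Between the experiment codes the subunits that passed the test all moved one way. Of 35 tested subunits, 24 were higher in the 4 Exp-156b than in the 2 Exp-156 libraries and 0 were lower, at an adjusted p under 0.05 in edgeR's quasi-likelihood test with genotype in the fit, where 42.9% of all tested genes passed, 20.0% as higher and 23.0% as lower. All 35 had a log2 difference above 0 (Exp-156b minus Exp-156), where 49.5% of all tested genes did, and the lowest was 0.03. Of all called genes 46.5% were higher, and with upper-quartile scaling 58.1%, where 30 subunits were then called, all higher. The median log2 difference was 0.18 over core and 0.30 over regulatory members, against -0.01 over all tested genes. Without overlap of the libraries, 32 of 36 subunits were higher in Exp-156b, where 28.9% of all tested genes were, and the exceptions were Psma1, Psma7, Psmb2 and Psmb11. The 36 subunits together summed to 3135 and 3159 CPM in the 2 Exp-156 libraries and from 3708 to 4130 CPM in the 4 others. What the codes stand for, the sex of the cells included, cannot be told apart in this comparison.

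**Figure D3:**
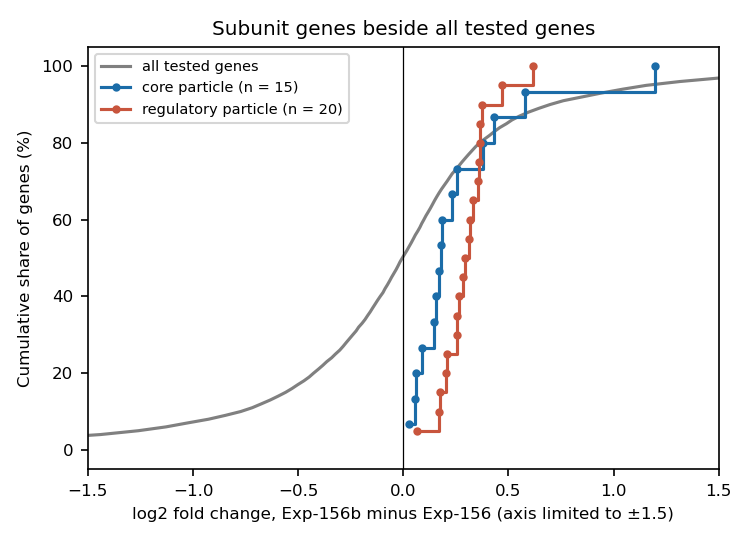
Cumulative distribution of log2 differences, Exp-156b minus Exp-156, over all 12827 tested genes, with the 15 core and the 20 regulatory members as separate lines (x axis limited to 1.5 in either direction). Both subunit lines lie to the right of 0, and the regulatory line lies further right than the core line.

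Leaving out a library changed how many subunits passed but the same 8 passed under every alternative run: Psmb5, Psmb6, Psmb7, Psmc1, Psmd1, Psmd2, Psmd8 and Psmd12. Without Tg-ACE replicate 1, which leaves WT replicate 1 as the only Exp-156 library, these 8 were the calls that remained. Without Tg-ACE replicate 2 there were 15 calls. Between the codes the samples of each genotype pointed the same way without a test: 33 of 35 subunits were above 0 among the WT libraries and 35 of 35 among the Tg-ACE libraries, where 49.6% and 48.7% of all tested genes were.

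Among the alpha subunits, 3 of 8 were called higher in Exp-156b, where 20.0% of all tested genes were: Psma2, Psma4 and the low-level Psma8. Psma2, part of the alpha ring, was at 96.8 and 92.4 CPM under Exp-156 and at 114, 105, 114 and 117 CPM in Exp-156b. Every Exp-156b library was above both Exp-156 libraries, and the log2 difference was 0.25 (SE 0.07), with an adjusted p of 0.023 in edgeR. That call was lost in edgeR without Tg-ACE replicate 1 (adjusted p = 0.18) and without Tg-ACE replicate 2 (adjusted p = 0.0505). Psma4, at 0.18, lost its call when any 1 library was left out. Psma8 gave 1.198 (SE 0.41, adjusted p = 0.047 in edgeR) at a level under 4 CPM, and it was no longer called when any 1 library other than WT replicate 2 was left out. Psma1, which lies in the same ring, was at 92.9 and 91.2 CPM under Exp-156 and at 98.1, 87.2, 94.3 and 95.3 CPM in Exp-156b, with overlapping groups and a log2 difference of 0.03 (SE 0.07).

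Among the beta subunits, 4 of 7 tested were called higher in Exp-156b, where 20.0% of all tested genes were. These beta subunits included all 3 that cut. Psmb5, which carries the chymotrypsin-like site, was at 75.9 and 71.7 CPM under Exp-156 and at 103, 100.1, 109.7 and 129 CPM in Exp-156b. Psmb6, with the caspase-like site, was at 206 and 202 CPM under Exp-156 and at 270.2, 248.8, 286.5 and 299.6 CPM in Exp-156b. Psmb7, with the trypsin-like site, was at 69.4 and 68.5 CPM under Exp-156 and at 86.1, 86.2, 93.7 and 93.4 CPM in Exp-156b. In each of the 3, the pair of Exp-156 libraries lay close together and below all 4 Exp-156b libraries, and among the latter the Tg-ACE libraries were above the WT libraries. The log2 differences were 0.58 for Psmb5 (SE 0.10), 0.43 for Psmb6 (SE 0.08) and 0.38 for Psmb7 (SE 0.07), with adjusted p-values of 0.0032, 0.0039 and 0.0031 in edgeR.

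The remaining beta subunits, which build the ring, had smaller differences. Psmb3 rose by 0.23 on the log2 scale (SE 0.07, adjusted p = 0.037 in edgeR), from 64.2 and 61.7 CPM to 69.4, 71.4, 75.7 and 80.0 CPM, and lost its call without WT replicate 3 or any Tg-ACE replicate. Psmb1 at 0.17, Psmb4 at 0.09 and Psmb2 at 0.06 did not pass. Psmb4 was at 108 and 107 CPM under Exp-156 and at 109, 109, 114 and 127 CPM in Exp-156b, so that only Tg-ACE replicate 3 stood clearly above the others.

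Regulatory members were called higher in Exp-156b in 17 of 20 cases, where 20.0% of all tested genes were. All 6 ATPases were among the 17. The log2 differences of the ATPases ran from 0.20 for Psmc2 to 0.37 for Psmc3, with a median of 0.30. Psmc2 was at 80.4 and 81.9 CPM under Exp-156 and at 88.7, 88.6, 96.2 and 99.8 CPM in Exp-156b, without overlap (SE 0.07, adjusted p = 0.040 in edgeR). The call of Psmc2 was lost when any 1 of the 6 libraries was left out, that of Psmc4 without WT replicate 2 or any Tg-ACE replicate, and that of Psmc6 without WT replicate 1 or 2 or Tg-ACE replicate 1 or 2. Psmc3 and Psmc5 lost theirs without Tg-ACE replicate 1, and Psmc1 was called throughout. The summed level of the 6 ATPases was 502 and 504 CPM in the former and 589 to 669 CPM in the latter libraries, so the pair of Exp-156 libraries differed little and both lay below the other 4.

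Of the 14 Psmd genes, 11 were called higher, where 20.0% of all tested genes were, and Psmd3, Psmd5 and Psmd14 did not pass. Psmd1 and Psmd2 encode the large scaffolds of the base to which shuttle receptors dock. Psmd1 was at 107 and 106 CPM under Exp-156 and at 134, 139, 139 and 136 CPM in Exp-156b, a log2 difference of 0.36 (SE 0.06, adjusted p = 0.0029 in edgeR). Psmd2 was at 271 and 272 CPM under Exp-156 and at 339, 333, 350.3 and 347 CPM in Exp-156b, a log2 difference of 0.33 (SE 0.06, adjusted p = 0.0048 in edgeR). The libraries of each code lay close together in both genes, whichever the genotype.

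In the lid, Psmd8 rose most, from 308 and 365 CPM in Exp-156 to 467, 477, 552 and 572 CPM in Exp-156b. Its mean was 337 ± 40.5 CPM (SD, n = 2) in Exp-156 and 517 ± 52.8 CPM (SD, n = 4) in Exp-156b, a log2 difference of 0.62 (SE 0.07, adjusted p = 0.00038 in edgeR). Psmd12, a structural lid subunit, was at 52.6 and 53.5 CPM under Exp-156 and at 75.7, 71.9, 71.4 and 75.3 CPM in Exp-156b, a log2 difference of 0.47 (SE 0.07, adjusted p = 0.0013 in edgeR). Within Exp-156b the Psmd12 libraries of the genotypes overlapped. Those of Psmd8 did not, which was also so for Psmc2, Psmc5 and other subunits. With 2 libraries per genotype such a separation says little, and its share over all tested genes is not given here. Psmd14, the deubiquitinase that cuts ubiquitin from the substrate, differed least, with 63.6 and 63.8 CPM in Exp-156, 64.9 to 68.4 CPM in Exp-156b and a log2 difference of 0.07 (SE 0.06).

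The chaperone-type members were mixed. Psmd10, also called gankyrin and encoded on the X chromosome, was at 24.1 and 21.3 CPM under Exp-156 and at 29.0, 27.5, 30.7 and 29.0 CPM in Exp-156b, a log2 difference of 0.36 (SE 0.09, adjusted p = 0.013 in edgeR). Psmd9 rose by 0.31 on the log2 scale (SE 0.09, adjusted p = 0.027 in edgeR). Both calls were lost without Tg-ACE replicate 1, and that of Psmd9 also without Tg-ACE replicate 2. Psmd5 gave 0.18 (SE 0.07) and did not pass, with an adjusted p of 0.086 in edgeR.

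**Figure D4:**
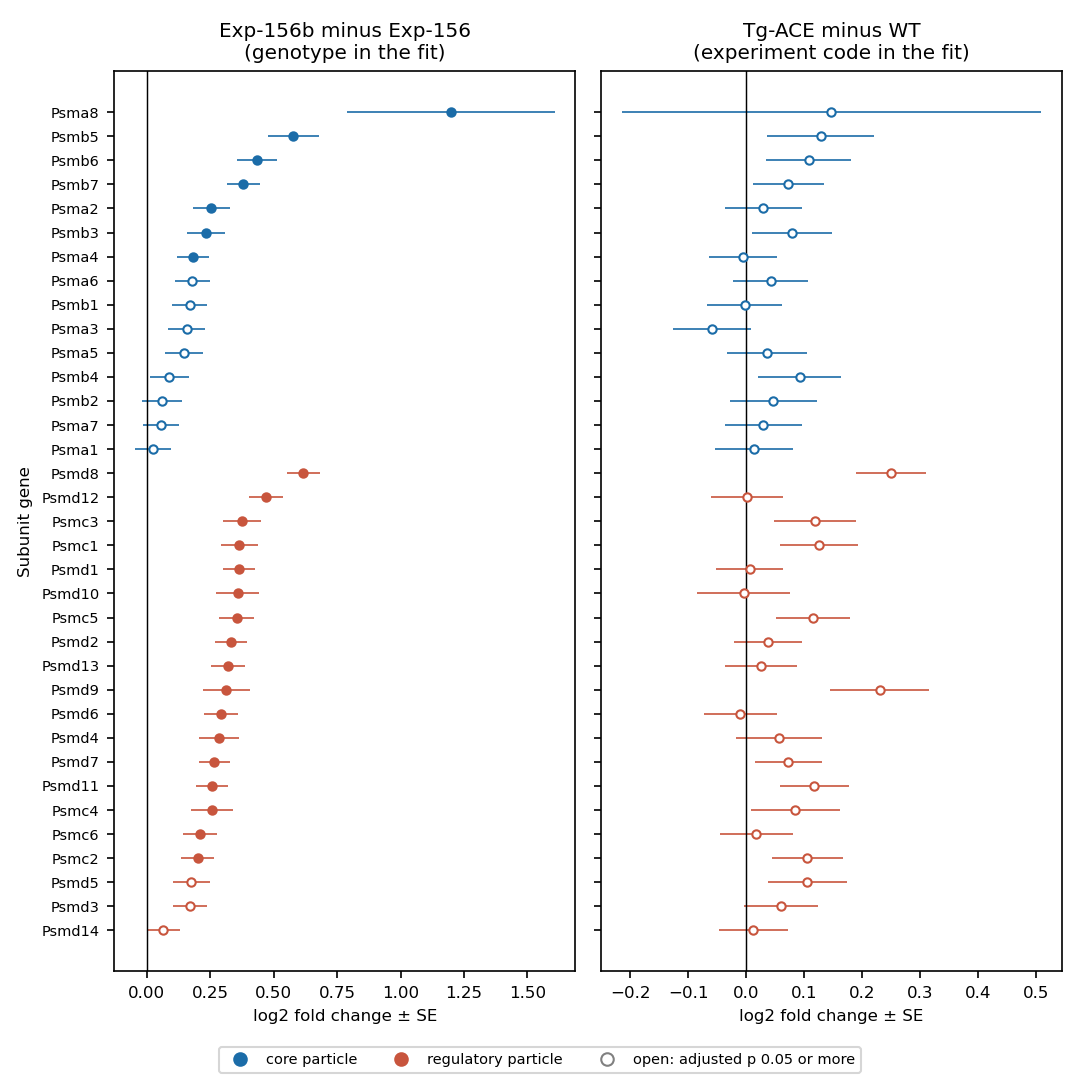
Log2 differences with standard errors for the 35 tested subunits between experiment codes (left) and between genotypes with the code in the fit (right), with filled symbols for an adjusted p under 0.05. On the left 24 symbols are filled and all lie right of 0, and on the right none is filled.

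**Figure D5:**
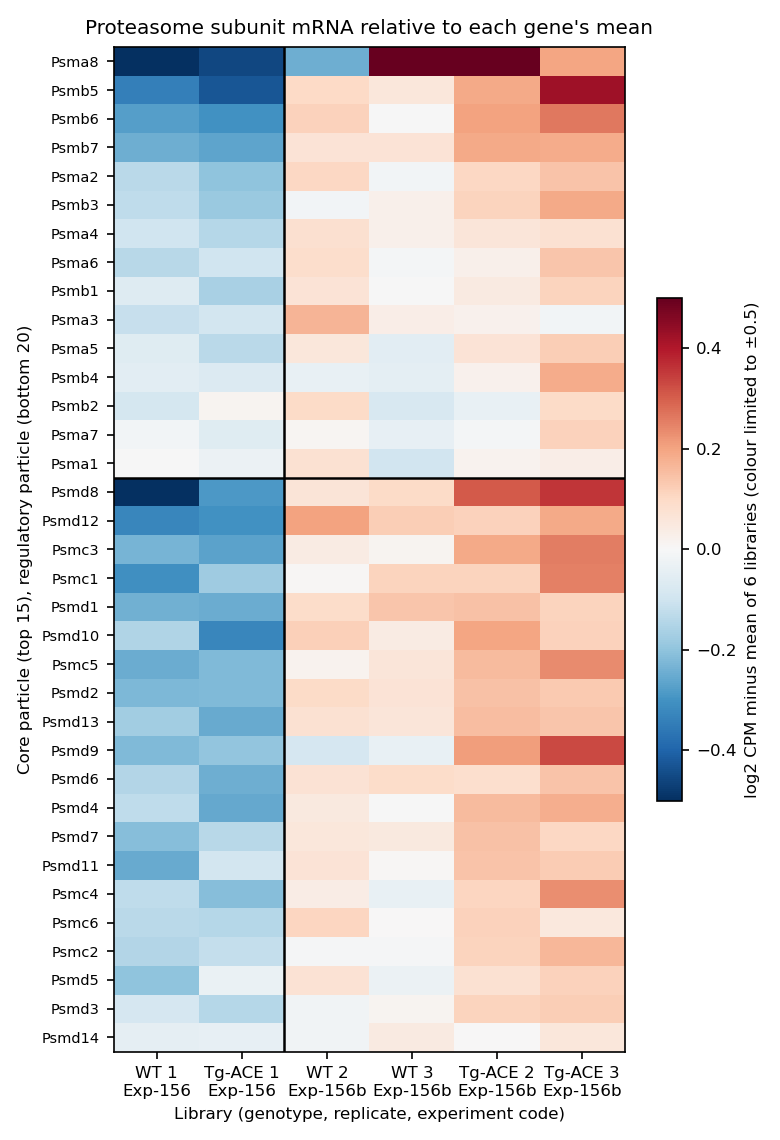
Deviation of each subunit's log2 CPM from its mean over the 6 libraries, by library, with colours limited to 0.5 in either direction. The Exp-156 libraries are low for most subunits, and the regulatory members deviate more than the core members.

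Regulatory subunits stood lower than core subunits, relative to their own means, in the Exp-156 libraries, a difference that was not tested. The median deviation from a gene's own mean over the 6 libraries was -0.21 and -0.22 on the log2 scale for regulatory members in the Exp-156 libraries and between 0.04 and 0.14 in Exp-156b. For core members it was -0.12 and -0.14 in Exp-156 and between -0.003 and 0.14 in Exp-156b. Summed regulatory CPM divided by summed core CPM was 1.39 in WT replicate 1 and 1.46 in Tg-ACE replicate 1, and 1.49, 1.58, 1.60 and 1.55 in WT replicates 2 and 3 and Tg-ACE replicates 2 and 3. Both Exp-156 libraries were therefore lowest, with WT replicate 2 close above them. Psmd8 alone made up 308 and 365 CPM of regulatory sums of 1823 and 1875 CPM in Exp-156. In Exp-156b it made up 467 to 572 CPM of sums of 2269 to 2511 CPM. The shift of the ratio thus rests in part on 1 gene.

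The ETS letters CCGGAAG, shown above in Psmd2 and Psmd11, were compared between called and other subunits with a promoter entry. They were present in 9 of the 20 that were higher in Exp-156b and in 1 of the other 9. Those 9 include Psmb11, which holds CCAAT and entered no test. By particle, CCGGAAG was in 9 of 17 regulatory and 1 of 12 core promoters. Regulatory members were also called more often, 17 of 20 against 7 of 15 core members, so particle and call overlap in this split. TGACNNNGC, shown in Psmb5 and Psmb6, was present in 5 of these 20 and 0 of these 9. The form with G, TGAGNNNGC, was present in 7 of 20 and 4 of 9, CCAAT in 6 of 20 and 6 of 9, and GGGCGG in 14 of 20 and 4 of 9, so the motifs did not share 1 direction, and none of these splits was tested. Psmd8, with the largest change among the regulatory members, held neither CCGGAAG nor TGACNNNGC in the window.

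Other genes of the pathway were compared between the codes in the same fit, in which 20.0% of all tested genes were higher and 23.0% lower. Of the inducible catalytic subunits Psmb8, Psmb9 and Psmb10, 0 of 3 passed, with log2 differences of 0.18, -0.07 and 0.19. The Psmb8 to Psmb5 ratio of CPM, which is not corrected for length and was compared between libraries only, was 1.53 and 1.66 in Exp-156 and 1.69, 1.06, 1.16 and 0.987 in Exp-156b. WT replicate 2 thus lay with the Exp-156 libraries and the other 3 lay below. Of 5 activator and inhibitor genes 1 passed, the inhibitor Psmf1 at 0.26, while the interferon-inducible activator Psme2 gave 0.23 with an adjusted p of 0.063 in edgeR. Of 6 assembly factors outside the rule, 0 passed in either direction in edgeR.

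Receptors and deubiquitinases that dock on the regulatory particle were higher in 4 of 11 cases and lower in 0, led by Usp14, a proteasome-bound deubiquitinase, at 0.49 (SE 0.08) and Rad23b, a shuttle receptor, at 0.34 (SE 0.07). Of 11 regulators of proteasome genes, 2 were higher and 3 lower, near the shares of all tested genes (20.0% and 23.0%). Nfe2l1, the transcription factor that raises subunit genes when proteasome activity is short, was higher by 0.48 (SE 0.07, adjusted p = 0.0012 in edgeR), and Ngly1, the glycanase that activates it, was lower by a log2 difference of -0.38 (SE 0.08, adjusted p = 0.0059 in edgeR). Nfe2l2, the related factor that binds the same element, was lower, at -0.43 (SE 0.09, adjusted p = 0.0073 in edgeR). Of 9 ubiquitin and ubiquitin-handling genes, 4 were higher and 1 lower, with the Vcp cofactors Nploc4 at 0.51 (SE 0.07) and Ufd1l at 0.39 (SE 0.07) foremost. Between genotypes 0 genes of any of these 6 lists passed in edgeR, and 0 had an unadjusted p under 0.05.

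Markers of other cell types differed between the codes as well, and their part in the subunit differences was not tested. The counts of called markers are to be read against the 20.0% of all tested genes that were higher and the 23.0% that were lower. The filter on low counts was set by genotype, so genes present only in the 2 Exp-156 libraries could not pass it. Counts of lower markers and the 23.0% leave such genes out. Granulocyte markers were lower in Exp-156b. Eosinophil markers summed to 179 and 410 CPM in the 2 Exp-156 libraries and to 12.6 to 22.4 CPM in the others, with 4 of 4 tested genes lower, and neutrophil markers to 274 and 590 CPM against 87.7 to 100.05 CPM, with 4 of 7 lower and the neutrophil antigen Ly6g at 0 in 5 of 6 libraries. Much of the neutrophil sum in Exp-156 was 1 gene, Retnlg, at 438 and 129 CPM under Exp-156 and 0.199 to 1.23 CPM under Exp-156b. Much of the eosinophil sum in Exp-156 was Alox15, at 150 and 61.3 CPM, and Ccr3, at 146 and 55.3 CPM. Ccr3, at most 0.355 CPM under Exp-156b, did not pass the filter and was not tested, and the eosinophil gene Prg2 was at most 0.450 CPM. Mast cell and basophil markers were lower in 6 of 6 cases (62.5 and 96.6 CPM against 14.2 to 29.0). T and NK cell markers were lower in 8 of 10 cases (46.0 and 49.4 CPM against 24.2 to 29.8), and dendritic cell markers in 2 of 3 (53.9 and 68.8 CPM against 5.42 to 10.1). B cell markers were lower in 1 of 9 cases (109.7 and 138 CPM against 65.0 to 147). Mesothelial and fibroblast markers went the other way, with 7 of 10 higher and 1 lower (237 and 256 CPM against 312 to 648). Among 15 tested macrophage core entries 1 was higher and 8 were lower, and Adgre1, which encodes the F4/80 antigen, had a log2 difference of -1.22. Of 18 proliferation genes 2 were higher and 1 lower, and of 10 heat shock genes 4 were higher and 2 lower.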

How the data were processed

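Stranded poly-A libraries had been sequenced as single reads of 75 bases, per the labels' protocols. The values, as deposited by the authors, are expected counts per gene without normalization. The submitters' processing notes name STAR 2.5.0, RSEM 1.2.25 and, with no role for each, mm10 and GRCh38. Between 11.0% and 11.4% of values per library were not whole, and all were rounded. Expected counts divide reads between similar transcripts. The 92 spike-in entries, with 1 count in all, were left out, and 0 columns belonged to other samples. Library totals and the level of 3 counts cover counting error only.

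Tests used edgeR 4.0.16 (R 4.3.3): quasi-likelihood fits with TMM scaling and filterByExpr over 12827 genes, with Benjamini-Hochberg adjustment at 0.05. Genotype was the only term for Tg-ACE minus WT. Genotype and experiment code were terms for Exp-156b minus Exp-156, and their product for the interaction. The standard error is the log2 difference divided by the square root of F. CPM uses TMM-scaled library sizes. DESeq2 1.42.0, limma-voom (limma 3.58.1), other scalings, filters and left-out libraries were alternatives. The fitting steps were also run on simulated counts with known changes, as a check of the computation only. Exon lengths came from GENCODE vM21 (GRCm38), in which 25251 identifiers were found, and promoters from RefSeq.

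The members, lists and tests were chosen with earlier results of these data known. Values in every library are given for the 4 members per particle with the smallest p in either comparison, the 2 highest and 2 lowest per kilobase, and Psmb5, Psmb6 and Psmb7. Differences are given for the 2 genes per pathway list with the smallest p. Other members named with their values (Psma1, Psmd10, Psmd14 and Psmd4), and Nfe2l2, Adgre1, Retnlg, Alox15, Ccr3 and Prg2, were chosen after their values were seen. Same-numbered libraries of the genotypes had correlated deviations from their group means (0.856, 0.484 and 0.637, each over 0.1). WT replicate 2 with Tg-ACE replicate 3 gave 0.539, and WT replicate 3 with Tg-ACE replicate 2 gave 0.614. Libraries of the same code resemble each other, so these values cannot show whether the numbers mark pairs. The numbers were used as pairs only in an alternative fit, the replicate block, and not in the main fits. No pair of libraries was identical.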

Additional observations from a re-analysis of the deposited data

How the results depend on the processing

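The count of 0 subunits called between genotypes held under the other scalings, filters, limma-voom, DESeq2 without the code, the code term and each left-out library, and DESeq2 with the code as a term called 1 (Psmd8). The replicate block gave 0 calls and changed no other call. Over all genes edgeR called 0, against 2 with the code term, 2 with the replicate block, 2 in Exp-156b alone and 9 and 38 by DESeq2 without and with the code. For the interaction it called 0 of all genes, against 13 by DESeq2 and 14 without WT replicate 3. In Exp-156 alone the genotype difference turned negative for Psmb4 (-0.0153), Psmb3 (-0.0560), Psmb6 (-0.0276), Psmb5 (-0.0828) and Psmb7 (-0.0203). With 1 library left out, Psmb5 ranged from -0.0342 to 0.36 and Psmb7 from -0.0157 to 0.21. Between the codes, with 1 library left out, 8 to 20 subunits were called rather than 24, and the regulatory median ranged from 0.24 to 0.36. The count was 30 with upper-quartile factors, where the medians were 0.26 for core and 0.38 for regulatory members. In the WT libraries alone the regulatory median was 0.24, and in the Tg-ACE libraries alone the medians were 0.23 for core and 0.37 for regulatory members. These last values, the code term in DESeq2 and the interaction without a library were added after seeing the data. All genes called between the codes fell from 5504 to 3449 and 3406 when WT replicate 1 or Tg-ACE replicate 1 was left out. Fewer samples were tested where a library was left out, and other causes were not tested.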
